A study of Drosophila melanogaster with 9 samples.

Results

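The wild-type expression profile of the 1st instar larval central nervous system (CNS) of Drosophila melanogaster was read from 3 libraries of Canton-S, a common wild-type strain, out of 9 libraries in the series. The members were the libraries whose labels give Canton-S as the genotype, and all 17421 genes of the deposited table were ranked by their mean level over these 3 libraries. The other libraries came from elav5 larvae, which carry a mutant allele of the neuronal gene elav, and from elav5/fne larvae, in which fne is mutated as well, and they were not compared here. Larvae were raised at 25 °C and the CNS was dissected from homozygous animals at the 1st instar, the stage that hatches from the egg. Libraries were made from 40 ng of total RNA with the QuantSeq REV kit, which primes on the poly(A) tail and yields a read at the 3′ end of a transcript. The labels do not state whether the 3 replicates came from separate groups of animals, so the spread between them may be technical.

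The larval CNS consists of the brain lobes and the ventral nerve cord, and most of its cells at this stage are neurons born in the embryo. Glia wrap, feed and insulate these neurons, and a layer of surface glia forms the blood-brain barrier. Neuroblasts, the neural stem cells, divide in the embryo, rest around hatching with few exceptions and resume division during larval life, when they produce most of the neurons of the adult.

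Levels are given as normalised CPM, a scale on which an average library of the series sums to 1000000. They are shown as mean ± SD over the 3 libraries (n = 3), and values of single libraries are in the order of replicates 1, 2 and 3. For a gene list, the median is that of its members' means, and the SD is that of the list medians of the 3 libraries. Such a median can lie outside the 3 library medians. As a transcript is read at its 3′ end, a level was not divided by transcript length. Across 5451 protein-coding genes at 10 or more, the level still had a Spearman correlation of 0.325 with the annotated exon length, a description over genes that share the same libraries. The libraries held 18511208, 18810352 and 16198526 reads assigned to genes, and 10712, 11414 and 10728 genes had at least 1 read. A count of 0 allowed a level of up to 3 reads, which corresponded to 0.150, 0.151 and 0.180 normalised CPM, and these limits cover counting error only. A gene is called high here at 100 or more, very high at 1000 or more, moderate between 10 and 100 and low under 10, and it is called at the floor where no library had more than 3 reads.

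Transcripts were concentrated in few genes. Of 17421 genes, 1482 were high or very high (8.51%), and 182 of these were very high. At the floor were 6013 genes (34.5%), of which 5135 had no read in any library, and the median gene had a level of 0.917. The 240 highest genes held 50% of the summed level and the 52 highest held 25%. Protein-coding genes held 91.7% of the level, and 25.4% of the 13797 protein-coding genes in the table were at the floor, against 70.7% of the 2445 noncoding RNA genes.

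The top of the order combined mitochondrial RNA, energy metabolism and genes of neurons. mt:lrRNA, the large ribosomal RNA of the mitochondrion, had 16229, 28924 and 27319 normalised CPM. Its lowest value was in replicate 1, and the summed level of mitochondrially encoded genes, which includes it, was lowest there as well. The noncoding RNA lncRNA:CR34335 (chromosome X, 3545750 to 3546110, dm6) had 19187, 14988 and 18391 and was highest in replicate 1. Ald1 (chromosome 3R, 26254069 to 26261591), the aldolase of glycolysis, had 16297, 16956 and 16702, and the values of these 3 genes overlapped between libraries, so their order is not settled by the spread. The next genes were IA-2 at 9017 ± 247, a phosphatase-like membrane protein of dense core vesicles, 14-3-3zeta at 7682 ± 144, a phosphoserine-binding adaptor, and Cam at 7358 ± 124, which encodes calmodulin. fax at 6867 ± 278, a gene of axon development, the G protein subunit gene Gbeta13F at 6097 ± 143, the RNA-binding protein gene shep at 5909 ± 293 and the poly(A)-binding protein gene pAbp at 5725 ± 551 completed the 10 highest. Places 11 to 20 were held by fne, nrv3, RpL8, CG14989, Rdl, the gene listed as FBgn0037636, Atpalpha, Rbp6, mt:CoII and Sap47, between 5041 and 3629. FBgn0037636 matched no row of the annotation and is given by its ID. nrv3 and Atpalpha encode subunits of the sodium-potassium pump, and Sap47 encodes a protein of presynaptic terminals.

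The labelled tissue was checked against defining markers of its cell types and of the tissues that surround it. Neuronal markers were high in each library. The summed level of elav, nSyb, Syt1 and brp was 4873, 5051 and 5072, and that of the 7 glial markers was 2291, 2169.9 and 2334. The 6 neuroblast markers together reached 90.7, 91.7 and 97.5, with a mean of 93.3 ± 3.70. Of the glial sum, Gs2 alone gave 1608 ± 73.6, alrm 276 ± 48.1 and Eaat1 262 ± 19.6. The other glial markers, repo, wrapper, moody and Gli, had means between 7.54 and 38.6. Means of single neuroblast markers were between 2.43 for insc and 46.2 for grh, so the order of the sums does not hold for each marker. In bulk tissue, few cells of a type and little RNA per cell cannot be told apart. Markers of neighbouring tissues were also present: the 6 muscle markers summed to 560.3, 641 and 500.2, the 4 fat body markers to 266, 375 and 234, the 5 ring gland markers in the table to 98.8, 135 and 152, the 4 hemocyte markers to 17.6, 23.2 and 37.3 and the 4 gut markers to 55.6, 7.50 and 15.5. Of the fat body sum, apolpp alone gave 266 ± 31.8, and Lsp1alpha, Lsp2 and Fbp1 had at most 1 read each in replicates 1 and 3. Of the ring gland sum, Akh alone gave 84.2 ± 22.1. The photoreceptor markers ninaE and trp were at the floor, and chp had at most 4 reads in any library.

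**Figure D1:**
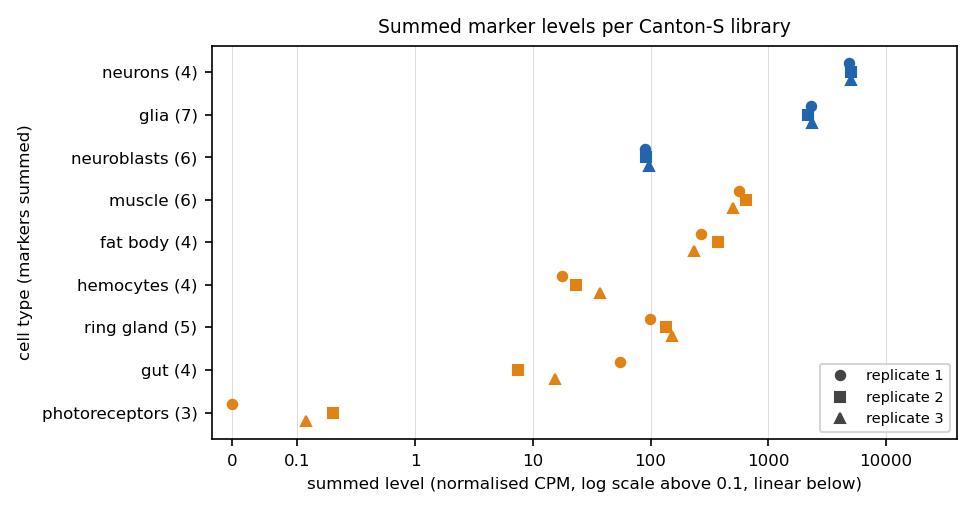
Summed level of defining markers (x axis, normalised CPM) for each cell type (rows, with the number of markers summed) in each of the 3 Canton-S libraries (symbols). Of the CNS cell types in blue, neurons (mean 4999) lie above glia and glia above neuroblasts (mean 93.3) in all 3 libraries. Gs2 alone gives 1608 of the mean glial sum of 2265. Among the neighbouring tissues in orange the gut sum ranges between 7.50 and 55.6.

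Gene lists for neurons, glia, neuroblasts, housekeeping functions and other tissues differed in level. Of the 284 genes on neuronal lists, 148 were high or very high (52.1%) and 9 were at the floor. The corresponding counts were 12 of 45 genes on glial lists (26.7%), 16 of 108 on neuroblast lists (14.8%) and 186 of 476 on housekeeping lists (39.1%), beside 8.51% over all genes. Classes share some genes, which are counted in each. Among the high and very high ones, hth and dlg1 are on neuronal and neuroblast lists, and Gat and Nrg on neuronal and glial lists. None of the 6 neuroblast markers summed above was high or very high, so the neuroblast share does not rest on them. On the lists of other tissues 11 of 673 genes were high (1.63%) and 428 were at the floor (63.6%). Median levels were 114.98 ± 5.54 for neuronal, 38.2 ± 1.78 for glial, 10.2 ± 1.24 for neuroblast and 50.3 ± 2.95 for housekeeping genes, and 0 for genes of other tissues.

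**Figure D2:**
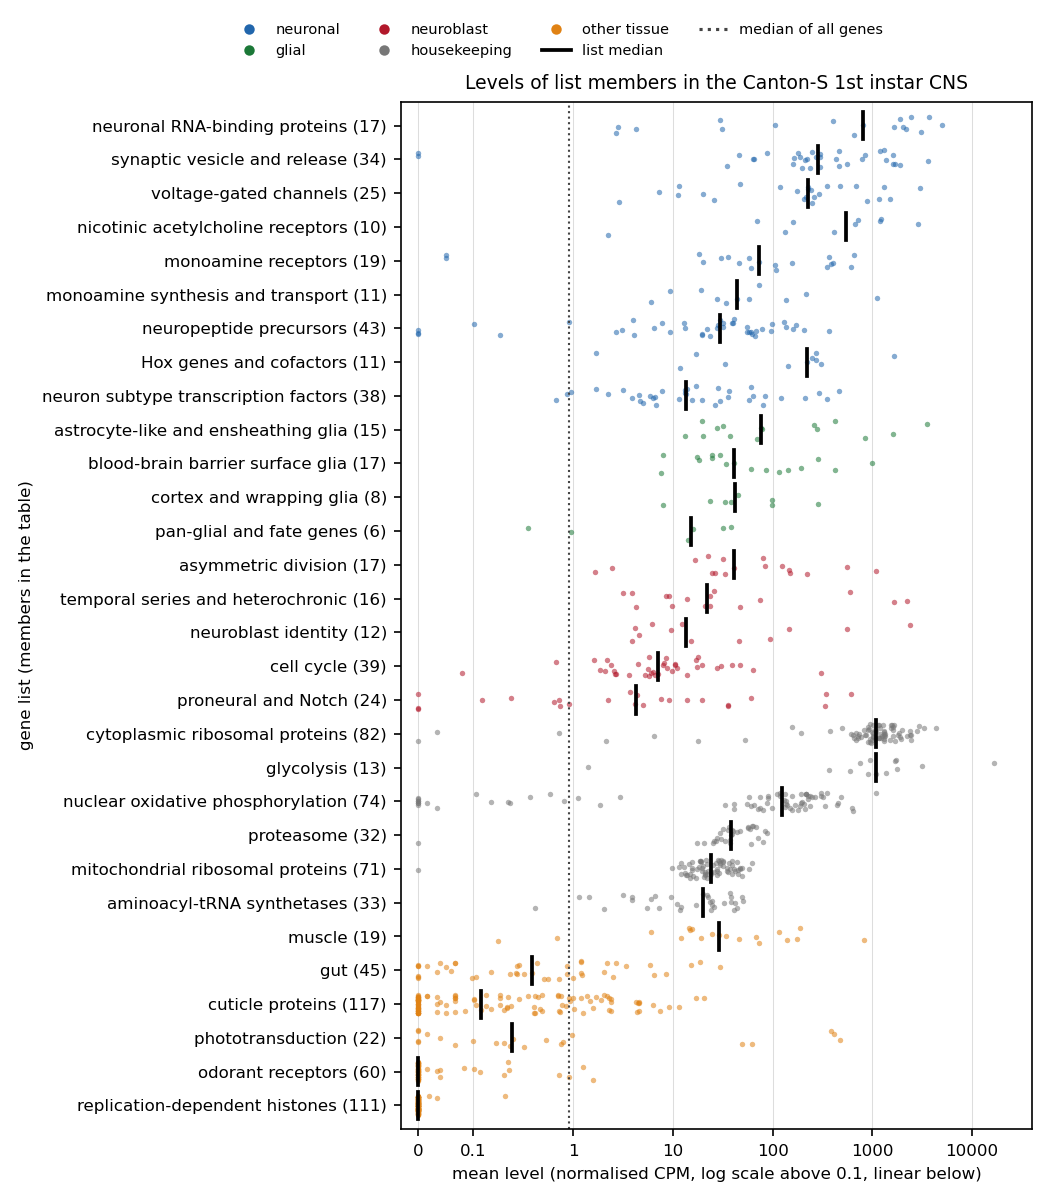
Mean level over the 3 Canton-S libraries (x axis, normalised CPM) of each member of 30 gene lists (rows, with the number of members in the table). Points are genes, coloured by class, black bars are list medians and the dotted line is the median of all genes at 0.917. Ribosomal protein, glycolysis and neuronal RNA-binding protein genes lie farthest right, and odorant receptor and replication-dependent histone genes gather at 0.

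Of 17 genes for neuronal RNA-binding proteins, 12 were high or very high, 8 of them very high. The ELAV/Hu proteins bind U-rich RNA in neurons, where they regulate alternative splicing and alternative polyadenylation. fne (chromosome X, 12917477 to 12950417) had 4422, 5453 and 5248 normalised CPM and elav (chromosome X, 509235 to 523226) had 1582, 1630.1 and 1717. All fne values lay above all elav values, and the ratio of fne to elav within a library was 3.07 ± 0.275. Rbp9, the remaining member of the family, had 1.90, 3.52 and 2.58 and was far below both. The exons of elav overlap those of another annotated gene on each strand, so its reads may include those of a neighbour.

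Rbp6 and mei-P26 followed fne among the list members with a row. Imp is also on this list and has no row under its symbol. Rbp6, related to Musashi, was at 3729 ± 177, mei-P26 at 3088 ± 428, Rbfox1, a splicing factor, at 2425 ± 166, the translational repressor gene pum at 2190.3 ± 96.9 and bru3 at 2025 ± 135. The values of Rbfox1, pum and bru3 overlapped. Syp, tn and Rbp9 were low, with means between 2.67 and 4.30.

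The presynaptic release machinery was high throughout most of its list. Of 34 genes for vesicle proteins, fusion factors and active zone proteins, 27 were high or very high, with a median of 285 ± 22.9. Sap47 led at 3629 ± 148, followed by the priming factor gene unc-13 at 1878 ± 81.8, the dynamin gene shi at 1709 ± 67.4, the complexin gene cpx at 1631 ± 61.4, the syntaxin gene Syx1A at 1609.8 ± 91.0 and the calcium sensor gene Syt1 at 1365 ± 27.6. The vesicle SNARE gene nSyb had 1139, 1210.0 and 1259 and the active zone scaffold gene brp had 789, 873 and 703. The lowest members with reads were Nsf2 at 46.1 ± 2.37 and Rph at 34.6 ± 5.11. stnA and stnB, which encode the stoned proteins of vesicle recycling, were listed at 0 reads in all 3 libraries. Their exons overlap each other's on the same strand, and whether that set their reads was not tested. Over all protein-coding genes, 43.2% of the 1060 with a same-strand exon overlap had no reads, against 19.3% of the 12737 without one.

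Genes that make or load acetylcholine, glutamate and GABA were mostly high, and those that define monoamine neurons were mostly moderate. ChAT, which makes acetylcholine, had 543, 502 and 536, and VAChT, which loads it into vesicles, had 307, 314 and 339.9. Both genes share exon sequence with a gene on the same strand, since VAChT lies within the ChAT transcription unit, and reads may be split between them. VGlut, the vesicular glutamate transporter, had 333, 297 and 279. The values of VAChT and VGlut overlapped, with a ratio within libraries of 1.07 ± 0.149. Gad1, which makes GABA, had 162, 197 and 202, whereas VGAT, its vesicular transporter, had 19.6, 15.8 and 15.4. VGlut was thus 17.96 ± 0.919 times the level of VGAT. Gat, a GABA transporter of astrocyte-like glia, was at 852 ± 82.9, and Ace, the enzyme that degrades acetylcholine, was at 1045 ± 64.7.

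Among monoamine genes the transporters Vmat and DAT were the highest. Vmat, the vesicular monoamine transporter, had 1126, 1089.6 and 1105, and the dopamine transporter gene DAT had 223, 214 and 218. ple, tyrosine hydroxylase and the defining enzyme of dopamine neurons, had 18.6, 19.1 and 20.1, so Vmat was 57.5 ± 2.77 times and DAT 11.3 ± 0.589 times the level of ple. Ddc, which makes dopamine and serotonin from their precursors, was at 138 ± 14.4 and Pu, of cofactor synthesis, at 33.9 ± 3.29. Tbh and Tdc2, of octopamine synthesis, were at 72.5 ± 6.72 and 44.4 ± 5.88. The serotonin transporter gene SerT was at 57.9 ± 4.99, Trhn, tryptophan hydroxylase of serotonin neurons, at 27.5 ± 2.73, and Hdc, which makes histamine, at 9.28 ± 0.308. Tdc1 had 1.95, 11.4 and 4.67, the widest relative spread of the list.

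**Figure D3:**
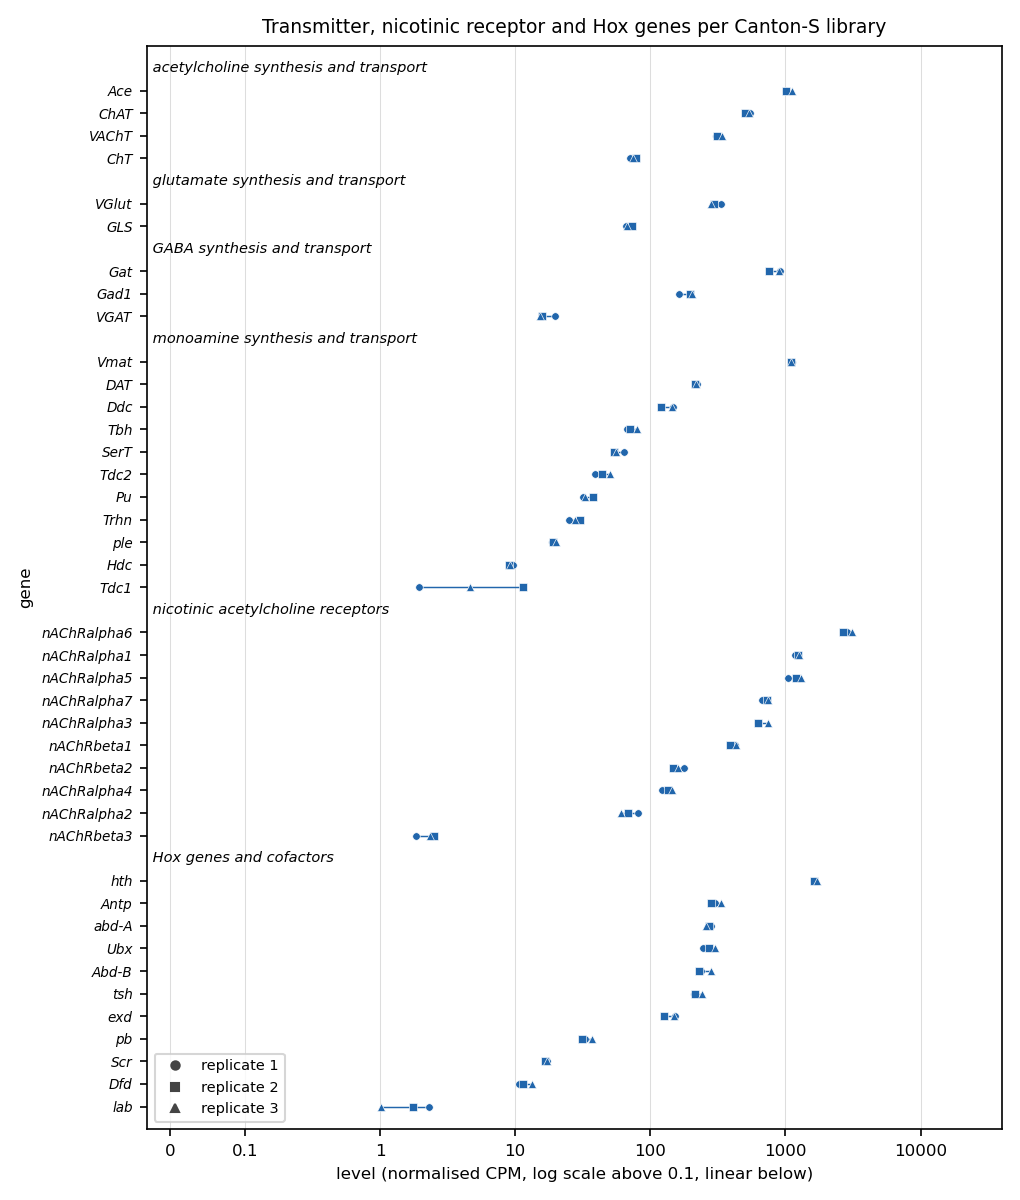
Level (x axis, normalised CPM) of each member of 6 neuronal lists (rows) in the 3 Canton-S libraries, with a line joining the lowest and highest library. Library values of a gene lie close together for most members, and steps between genes such as Vmat at 1107 and ple at 19.3 exceed that spread.

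Receptors for fast transmission spanned over 3 orders of magnitude. Among the nicotinic acetylcholine receptor subunits, nAChRalpha6 was highest with 2869, 2651 and 3116, above nAChRalpha1 at 1228 ± 48.8 and nAChRalpha5 at 1182 ± 137, which overlapped. nAChRalpha7 at 713 ± 38.6 and nAChRalpha3 at 663 ± 66.6 overlapped as well, and were followed by nAChRbeta1 at 416 ± 21.9, nAChRbeta2 at 161 ± 15.4, nAChRalpha4 at 134 ± 11.3 and nAChRalpha2 at 70.2 ± 10.3. nAChRbeta3 was low, with 1.85, 2.52 and 2.34.

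Rdl, the main GABA-A receptor subunit, was the highest of the GABA, glutamate and muscarinic receptor genes, with 4223, 4234 and 4529.9. GluClalpha, a glutamate-gated chloride channel, was at 825 ± 26.2 and GluRIB, an AMPA-type receptor, at 771 ± 43.5. The NMDA receptor genes Nmdar1 and Nmdar2 were at 151 ± 7.60 and 244 ± 4.86. clumsy and mAChR-C had no reads. The glutamate receptor subunits of muscle, GluRIIA to GluRIIE, were low or without reads, with 1.37 for the highest, GluRIIC.

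Of 19 monoamine receptor genes, 9 were high, led by the octopamine receptors Octalpha2R at 660.3 ± 38.8 and Octbeta1R at 605 ± 39.2, whose values overlapped. The serotonin receptor 5-HT1A was at 408 ± 21.6 and the dopamine receptor Dop1R1 at 386 ± 17.2. HisCl1 and ort, the histamine-gated chloride channels that serve photoreceptor synapses, were at the floor.

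Voltage-gated and related channels had a median of 229 ± 3.24, and 18 of the 25 in the table were high or very high. Among these 25, the potassium channel genes Sh, with 2758, 3079.7 and 3259.6, and slo, at 1491 ± 60.8, were the highest. The calcium channel gene cac at 1297 ± 82.6 and Ih, a cation channel opened by hyperpolarization, at 1176 ± 87.6 came next. SK and eag, further potassium channels, were at 889.9 ± 39.8 and 687 ± 45.6. The inward rectifiers Irk1 and Irk3 were low, at 2.85 ± 0.220 and 7.21 ± 0.930. The sodium channel gene para was on the list and has no row under its current symbol, so it was not analysed here. Whether it is among the 170 IDs with no annotation match was not checked, so its place in the order is not known.

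Neuropeptide precursors had a median of 30.0 ± 2.75, and 6 of 43 were high. Proc, the precursor of proctolin, had 385, 339 and 372, and was above AstA at 205 ± 15.98. ITP at 170.4 ± 12.4 and Dh31 at 161 ± 6.90 are ion transport and diuretic hormones and overlapped. Gpb5, a glycoprotein hormone subunit, was at 135 ± 12.9.

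Ilp2, an insulin-like peptide of a small group of brain neurons, had 122, 137 and 129. Ilp5 and Ilp3, made in later larvae by the same neurons, had 3.46, 6.04 and 2.82 and 3.06, 1.86 and 3.24, and Ilp2 was 34.7 ± 11.6 times as high as Ilp5. Pdf, the peptide of clock neurons, was at 78.6 ± 2.90, outside the highest 6 of the list. Ilp1, Nplp3 and RYa had no reads. Of the 7 processing genes, 5 were high: the enzymes svr, at 317 ± 6.21, and amon, at 177 ± 10.3, the amidating enzymes Phm, at 122 ± 12.3, and Pal2, at 204 ± 17.8, and 7B2, a helper of a processing protease, at 251 ± 24.4. Pal1 was at 9.84 ± 1.64 and dimm, the transcription factor of peptide neurons, was at 3.19 ± 0.421.

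Genes of the neuronal cytoskeleton and of adhesion and guidance had a median of 209 ± 20.9, and 31 of 42 were high or very high. nrv3 was at 5003 ± 356, Appl, the fly amyloid precursor-like protein, at 2259 ± 189.5, the teneurin gene Ten-a at 2086 ± 88.99, N-cadherin CadN at 1498 ± 92.8 and the neurexin gene Nrx-1 at 1065 ± 10.03. The lowest were robo2 at 22.5 ± 6.39, the phosphatase gene Ptp69D at 11.1 ± 0.374 and the guidance cue gene NetA at 8.996 ± 0.518, and NetA was far below its paralogue NetB at 708 ± 19.3.

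Transcription factors of neuron subtypes were lower, with a median of 13.7 ± 0.434. Of 38, 5 were high (13.2%), beside 8.51% over all genes. The highest were vvl with 391, 438 and 559.6 and zfh1, a factor of motor neurons among other cells, at 349 ± 43.0. zfh2 at 289.8 ± 4.97, Lim1 at 214 ± 32.4 and toy, a Pax6 gene, at 122 ± 8.87 were the others. The embryonic patterning genes ind, gsb-n and gsb were the lowest, each with a mean under 1.

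Hox genes of the trunk were higher than those of the head. The trunk genes Antp, abd-A, Ubx and Abd-B had means of 306 ± 24.7, 272 ± 11.5, 272 ± 27.5 and 249 ± 28.5, and neighbours in this order below Antp overlapped. The head genes pb at 33.6 ± 3.13, Scr at 17.0 ± 0.421, Dfd at 11.9 ± 1.39 and lab with 2.30, 1.76 and 1.02 lay below them, each separate from the next. hth and exd, which encode DNA-binding partners of Hox proteins, were at 1660.0 ± 50.7 and 142 ± 14.5, and tsh, a trunk factor, at 223 ± 16.9. Antp overlaps another gene on the same strand.

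Of the 45 genes on glial lists 12 were high or very high, and none of the 6 pan-glial and fate genes was. Obp44a (chromosome 2R, 8134170 to 8135315), an odorant-binding protein gene expressed in glia, had 3438, 3616 and 3490.3 and ranked 21 of all genes. Gs2, the glutamine synthetase that converts glutamate taken up by glia, had 1551, 1580.2 and 1691. repo (chromosome 3R, 18236192 to 18239602), the transcription factor that marks nearly all glia, had 42.4, 37.3 and 34.9, and Gs2 was 42.5 ± 5.90 times as high. gcm, the switch gene of glial fate in the embryo, had 0.250, 0.503 and 2.10, and its relative gcm2 had 0.150, 0.604 and 0.300.

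By glial type, astrocyte-like and ensheathing glia had a list median of 76.7 ± 6.46, with nrv2 at 422 ± 19.2, alrm, an astrocyte marker, with 325, 229 and 275, and the glutamate transporter gene Eaat1 at 262 ± 19.6, 3.73 ± 0.169 times its relative Eaat2. alrm and Eaat1 overlapped. In the list for surface glia of the blood-brain barrier, Nrg at 989 ± 37.3, also a neuronal adhesion gene, was the highest, and the transporter gene Mdr65 had 290.5, 253 and 306. moody, a receptor of the barrier, had 35.1, 33.9 and 34.3, and the septate junction gene Gli had 9.42, 6.542 and 6.65. Of the barrier list, Col4a1 at 115.5 ± 25.3 and vkg at 61.3 ± 13.8 encode collagens that hemocytes and fat body also produce. Of the 4 defining hemocyte markers, Ppn, an extracellular matrix gene, had 13.5, 17.5 and 26.1 and Hml had 3.91, 5.38 and 10.4, while NimC1 and srp were near the floor with means of 0.236 and 0.204. The contribution of other cells to the collagens was not tested. Cortex and wrapping glia had a median of 41.6 ± 3.54, with the sterol carrier gene Npc2a at 286 ± 21.0 and Cyp4g15 at 99.02 ± 12.5. The cortex glia gene zyd was at 98.3 ± 6.68 and wrapper, a marker of midline glia among others, at 38.6 ± 7.14. No gene of the 45 on glial lists was at the floor.

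Of the 12 neuroblast identity genes, 5 were low, 4 moderate and 3 high or very high. dpn, a bHLH factor of neuroblasts, had 9.42, 11.5 and 8.03, wor had 3.66, 7.45 and 7.43, ase had 2.35, 4.23 and 5.93 and nerfin-1 had 2.55, 4.53 and 4.49. btd, the remaining low gene, was at 4.54 ± 1.52. The values of wor, ase and nerfin-1 overlapped and those of dpn lay above them, and elav was 175 ± 36.4 times the level of dpn. The moderate genes, all of them transcription factors, were klu at 93.3 ± 5.35, grh at 46.2 ± 3.75, ham at 15.1 ± 1.05 and sna with 5.36, 12.1 and 19.3. The zinc finger gene scrt led the list with 2103, 2417 and 2599, followed by l(3)neo38 at 553 ± 48.3 and SoxN at 146 ± 11.5. As background, scrt is also expressed in neurons, so its level is not specific to neuroblasts.

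Genes of asymmetric division ranged between low and very high, and 6 of 17 were high or very high. brat, a translational repressor passed to the differentiating daughter, had 942, 1119 and 1244, and pros, which ends neuroblast fate and is also found in neurons and glia, had 211, 248 and 202. The polarity genes dlg1, aPKC and scrib, and stau, were between 125 and 562. mira, the adaptor that carries the products of brat and pros, was at 24.7 ± 3.82, pins at 26.3 ± 2.49 and baz at 22.8 ± 2.002. insc and pon, adaptors that position the spindle and the determinants, had 1.102, 3.12 and 3.06 and 0.701, 2.06 and 2.16, with the lowest value of each in replicate 1.

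Temporal genes are expressed by neuroblasts in sequence and passed on to their neurons. Of those with a row, chinmo, hth and br were high or very high and the late factors were low. chinmo (chromosome 2L, 1651258 to 1704682), a marker of early-born neurons, had 2199, 2186 and 2365. br, an ecdysone-response factor, had 604, 621 and 573. The late factors Syp, Eip93F and mamo had 2.85, 6.44 and 3.59, 2.15, 6.79 and 2.64 and 0.851, 7.25 and 1.44, each highest in replicate 2, and chinmo was 589 ± 224 times the level of Syp. The members of the embryonic series were lower than chinmo, with Kr at 75.3 ± 0.560, svp at 46.7 ± 0.415, nub at 25.7 ± 2.23, cas at 23.4 ± 2.67 and hb at 13.8 ± 1.57, and lin-28, an RNA-binding heterochronic factor, was at 23.5 ± 2.76. Imp has no row under that symbol and was not analysed here. It may be among the 170 IDs with no annotation match, which was not checked, so its place in the order is not known.

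**Figure D4:**
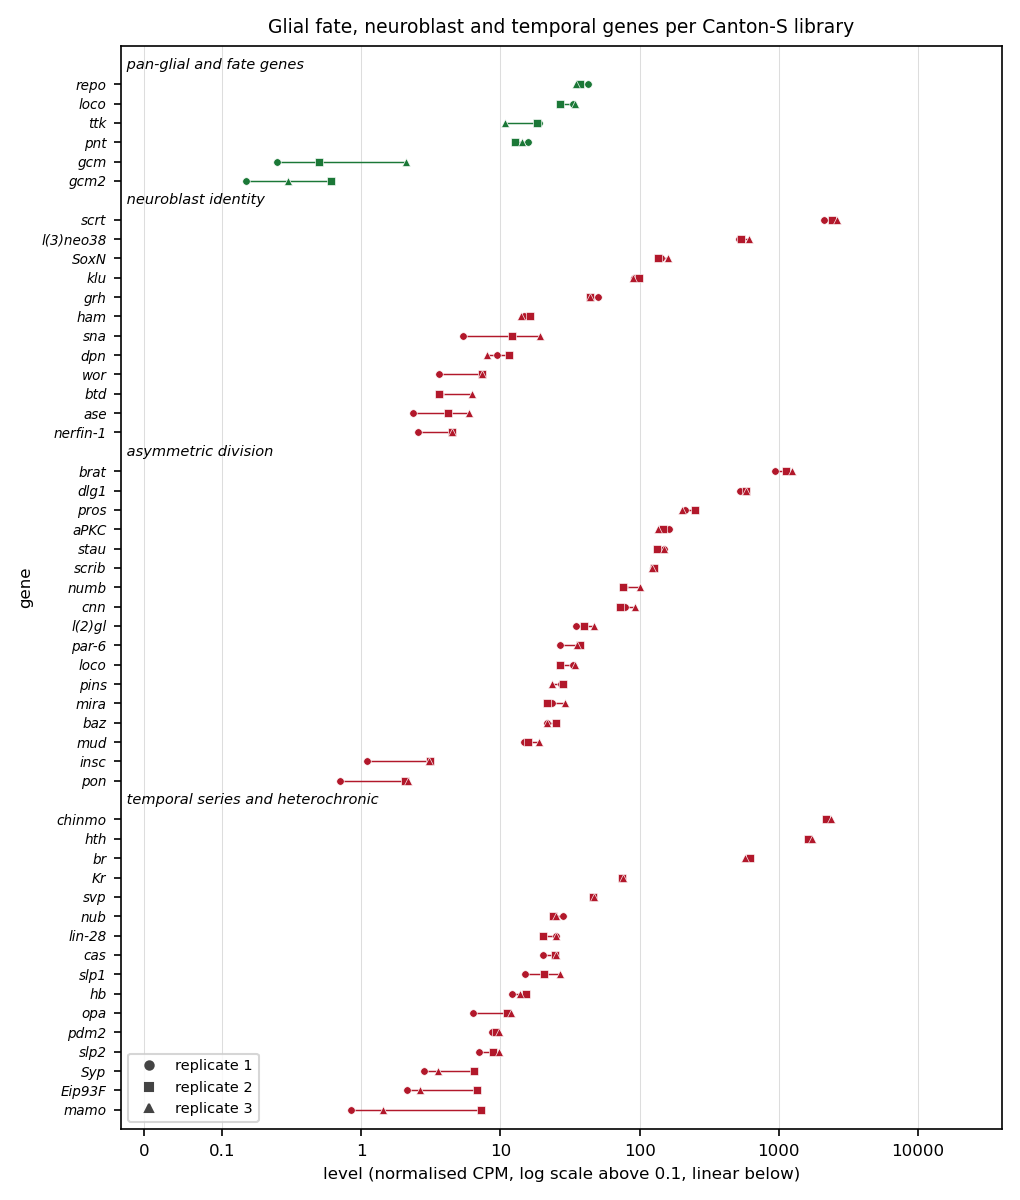
Level (x axis, normalised CPM) of each member of the glial fate, neuroblast identity, asymmetric division and temporal lists (rows) in the 3 Canton-S libraries, with a line joining the lowest and highest library. chinmo near 2250 and scrt near 2373 lie far above dpn, wor, ase and nerfin-1, which stay at or below 11.5 in each library.

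Cell cycle genes had a median of 7.10 ± 0.994, and 1 of 39 was high (2.56%), beside 8.51% over all genes. That gene was E2f1, a transcription factor of S phase entry, with 277, 290.2 and 340.2, and its partner gene Dp was at 63.7 ± 4.49. trbl, which slows the cycle, had 34.9, 32.6 and 49.7, and stg, the Cdc25 phosphatase that triggers mitosis, had 37.1, 29.0 and 24.3. CycA at 27.5 ± 1.39 was 13.9 ± 3.24 times as high as CycB, which had 1.75, 2.77 and 1.68. dap, an inhibitor of Cyclin E kinase, was at 17.4 ± 2.39, CycE at 8.12 ± 0.816 and polo, a mitotic kinase, at 6.08 ± 0.756. sub, aurA and CycJ were the lowest, and CycJ had at most 4 reads in a library.

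Of 24 Notch pathway and proneural genes, 3 were high (12.5%), a share near the 8.51% over all genes. These were mam, a coactivator of Notch, at 607 ± 34.4, the protease gene kuz at 344 ± 16.6 and emc, an inhibitor of bHLH factors, at 332 ± 23.3. N itself was at 35.7 ± 2.94. The Notch target E(spl)mgamma-HLH, known from neuroblasts, had 4.06, 5.13 and 5.75. The proneural genes ac, ato and amos had no reads, and sc and l(1)sc had means of 0.121 and 0.715.

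Housekeeping genes did not share a level. Cytoplasmic ribosomal protein genes had a median of 1092 ± 10.9, and 50 of 82 were very high, with RpL8 at 4378 ± 184, RpL41 at 3324 ± 108 and RpL15 at 2951 ± 303 on top. Paralogue copies were at the other end: RpS19b had 1.55, 4.13 and 0.719, RpS10a had 0.200, 1.01 and 0.959, and RpL10Aa and RpS28a were at the floor. RpS14a and RpS14b are close copies, between which reads may be shared, and their ratio was 17.6 ± 0.818. Mitochondrial ribosomal protein genes had a median of 24.0 ± 1.63, and 69 of 71 lay between 10 and 100.

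Glycolysis stood beside the ribosome, with a median of 1079 ± 119 and 12 of 13 genes high or very high. After Ald1 came Gapdh2 with 3099, 3263 and 3096, the hexokinase gene Hex-A with 1754, 1655 and 1953 and the lactate dehydrogenase gene Ldh with 1755, 1701 and 1762. Hex-C, the hexokinase of fat body, had 2.85, 0.855 and 0.479. Nuclear genes of oxidative phosphorylation had a median of 125 ± 8.57, with ATPsynC at 1098 ± 93.4 and COX4 at 629 ± 40.8, and 9 of 74 were at the floor. The 9 were ND-MNLL, whose exons overlap a gene on the same strand, and 8 copies named as like another subunit, such as COX7AL and ATPsynGL.

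Of the mitochondrially encoded genes, mt:CoII, mt:CoIII, mt:Cyt-b, mt:CoI and mt:ATPase6 were between 2633 and 3666. The summed level of this list was 33269.9, 48493 and 46474, 4.51% of the summed level of all genes.

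Proteasome subunits, with a median of 38.3 ± 3.62, RNA polymerase II and general factors, at 30.4 ± 3.58, and aminoacyl-tRNA synthetases, at 19.9 ± 5.15, were moderate, and no member of these 3 lists reached 100. Rpn13 was the highest proteasome gene at 87.3 ± 4.73 and Prosalpha6 the lowest with reads, at 17.4 ± 5.51. Prosalpha1, a subunit that every cell uses, was listed at 0 in all libraries, and its exons overlap a gene on the opposite strand. Of the genes often used as references in expression assays, eEF1alpha1 was at 2022 ± 35.7, alphaTub84B at 1455 ± 176, RpL32 at 1155 ± 50.8 and Act5C at 1089 ± 130.1. SdhA was lower at 218 ± 9.69 and Tbp lower still at 27.8 ± 3.12.

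The vacuolar proton pump, which acidifies synaptic vesicles and lysosomes, was split between copies of its subunits. Vha16-1 had 2142, 1984 and 2029, and Vha13 was at 562 ± 36.5, Vha68-1 at 398 ± 25.03 and VhaAC45 at 366 ± 45.4. Vha16-2, Vha16-4, Vha16-5 and 5 further subunit copies were at the floor. These 8 of 27 genes (29.6%) were a share below the 34.5% of all genes and above the 25.4% of protein-coding genes. In all, 13 of 27 pump genes were high or very high. Vha68-1 was 7.52 ± 0.857 times the level of its paralogue Vha68-2. Among 25 translation factors, pAbp was followed by eEF1alpha1, eEF2 at 892 ± 22.2 and eIF4A at 724 ± 58.1, and 16 were high or very high. eEF1alpha1 was 41.2 ± 13.1 times the level of eEF1alpha2. In the actin and tubulin families, alphaTub84B, betaTub56D at 1236 ± 153 and Act5C were very high, and the testis tubulin betaTub85D and the flight muscle actin Act88F had means of 3.68 and 0.298. Of 24 Rab GTPases, which direct vesicle traffic, 6 were high, led by the synaptic vesicle gene Rab3 with 311, 275 and 306 and the endosome gene Rab5 with 256, 251 and 274, which overlapped with neighbours below it, and Rab9D and Rab9E had no reads.

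Several gene families were near or at 0. Of 60 odorant receptor genes 50 were at the floor (83.3%), of 60 gustatory receptor genes 52 (86.7%) and of 66 ionotropic receptor genes 55 (83.3%). Over all genes the share was 34.5%, and over protein-coding genes it was 25.4%. The highest members were Or2a at 1.596 ± 0.257, Gr28b at 1.76 ± 0.533 and Ir47a at 4.44 ± 0.973. In phototransduction, norpA, a phospholipase C, with 471, 459 and 509, rdgA, a diacylglycerol kinase, at 416 ± 30.7 and the G protein gene Galphaq at 389 ± 14.8 were high, whereas Rh2, Rh4 and trp had no reads. Rh7, an opsin known from the brain, had 67.4, 56.6 and 63.3, above Rh5 with 2.35, 0.302 and 0.240 and Rh6 with 1.25, 0.755 and 0.359. The salivary gland glue list was at the floor for 19 of 22 genes (86.4%) and the testis and seminal fluid list for 60 of 77 (77.9%). The cuticle list was at the floor for 49 of 117 genes (41.9%), beside 34.5% of all genes and 25.4% of protein-coding genes. None of its members was high.

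Replication-dependent histone genes were at the floor for 110 of 111 members. Their messages end in a stem-loop in place of a poly(A) tail, and the kit primes on poly(A), so the readout carries little information on them, and how far this set the values was not tested. Antimicrobial peptide and other immune effector genes had 9 of 21 members at the floor (42.9%), beside 34.5% of all genes and 25.4% of protein-coding genes. The highest of them, Drs, had 0.551, 5.79 and 0.719. Among germline genes piwi, pgc and zpg had no reads, while tud at 66.7 ± 5.82 and gcl at 46.2 ± 5.98 were moderate. Of ring gland genes, which may enter with the dissected brain, Akh, the adipokinetic hormone of the corpora cardiaca, had 59.0, 93.3 and 100.2, spok, of ecdysone synthesis, had 20.2, 21.9 and 25.7 and jhamt, of juvenile hormone synthesis, had 14.7, 15.05 and 21.9. Muscle genes had a median of 29.0 ± 4.74, with the broadly expressed Tm1 at 826 ± 22.5 and the muscle myosin gene Mhc with 70.1, 78.6 and 56.1.

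The libraries were close for most genes and differed for small groups. Across the 5607 genes at 10 or more, the median coefficient of variation (CV) was 10.2%, beside 3.63% from read counting alone, and it was 12.2%, 6.79% and 4.61% for moderate, high and very high genes. Pairs of libraries had r of 0.975 to 0.983 on the log2 scale over these genes, which are not independent replicates, and between 1.02% and 1.41% of genes differed by over 2-fold. A CV over 50% was found in 67 genes (1.19%).

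Inducible heat shock genes made up 7 of these 67, and each was lowest in replicate 1 and highest in replicate 2. Hsp23, a small heat shock protein, had 39.2, 213 and 118, Hsp70Ab, of the main inducible chaperone, had 12.1, 163 and 92.9 and Hsp68 had 8.66, 66.02 and 33.9. Copies of Hsp70 are nearly identical, so reads may be shared among them. Of 16 constitutive chaperones with a mean of at least 1, 15 were highest in replicate 2, beside 2889 of 8640 genes with such a mean, and Hsp83 had 362, 841 and 299. What set these values was not tested.

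Fat body storage genes were the most variable. Lsp1beta, a larval serum protein, had 0, 112 and 0, Lsp2 had 0, 37.4 and 0 and Fbp1 had 0, 31.4 and 0.0599, so the reads came almost entirely from replicate 2. Fbp2, Lsp1gamma and Obp99b were likewise highest in replicate 2, with 0, 68.2 and 0.120, 0.351, 52.7 and 0 and 0.401, 73.9 and 0. apolpp, a fat body lipoprotein gene, had 266, 297 and 233, also highest in replicate 2 but with reads at a like level in all 3 libraries. The 3 gut genes at 10 or more, all for proteases, were highest in replicate 1 and lowest in replicate 2, with deltaTry at 63.1, 3.67 and 23.1, Jon25Bi at 43.8, 4.73 and 8.21 and Jon65Aiv at 34.01, 3.02 and 8.87. Of the 16 gut genes with a mean of at least 1, however, 8 were highest in replicate 1 and 8 in replicate 2, and 7 were lowest in replicate 2. Other genes among the 10 most variable were CG34166, Pebp1, lncRNA:CR40469 and CG13560, with CV between 116% and 148%. What set the order of libraries was not tested.

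**Figure D5:**
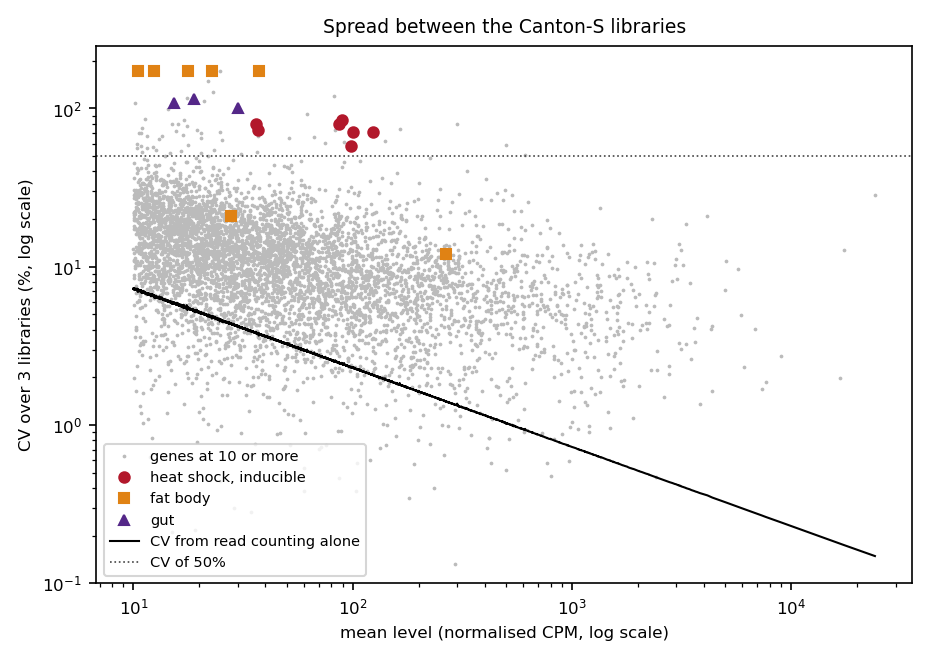
Coefficient of variation over the 3 libraries (y axis, percent) against the mean level (x axis, normalised CPM) of the 5607 genes at 10 or more. The black line is the CV expected from read counting, and the dotted line marks 50%. The 7 inducible heat shock genes, 5 of 7 fat body genes and the 3 gut genes shown lie above 50%.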

How the data were processed

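The authors deposited a value per gene from reads at transcript 3′ ends, per the labels' protocols. 1 deposited table with 17421 FlyBase genes and 9 libraries was used, of which the 3 Canton-S columns entered. Its deposited signal is a whole read count over a size factor that is constant within a library, which was taken from the values, since 100% of them come out whole within 0.1 when divided by the value of 1 read, fitted to the low values of each column. Kit, stage and input follow the labels' protocols, and the build is dm6 per the submitters' processing notes. For the aligner, the counter, the gene models and the strandedness of counting, the sources used here give nothing.

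To obtain normalised CPM, each value was scaled by 1000000 over the average column total of the 9 libraries, and reads were recovered by multiplying out the step. Symbols, coordinates and exon overlaps came from BDGP6.54, on dm6 coordinates. 17251 IDs matched and 170 did not, with 2.57% to 2.74% of the level. Exons of 1257 genes overlap another gene's on the same strand, and reads of such genes or of close copies may be shared.

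With 1 group and no comparison, no test was made. Neighbours in an order are called separate where the library values do not overlap. The 56 gene lists, with 1589 genes of which 18 had no row under their symbol, and the members of the profile were chosen with earlier results of these data known. Named genes were drawn, without naming every one, from the 20 highest genes, the members of lists of up to 14 genes, the 6 highest and 4 lowest of longer lists, the markers and the 10 genes with the highest CV. Other genes were picked with their values in view. The scripts were tested on simulated data. Alternatives were other scalings, the median, other thresholds, filters on rows and each library left out. The software was Python 3.11.15 with pandas 2.3.3, numpy 2.4.6, matplotlib 3.10.9 and scipy 1.17.1.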

Additional observations from a re-analysis of the deposited data

How the results depend on the processing

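The counts of genes by level depended on where a high level begins. With 50 in place of 100 as the limit, 2397 genes were high over the whole table, 19 on glial lists and 17 on lists of other tissues. With 200 as the limit, 846 genes were high over the whole table and 5 on lists of other tissues. With a floor of 10 reads, 6 neuroblast list genes were at the floor. For genes at 100 or more the median CV was 6.52% and 7 genes had a CV over 50%, and for genes at 1 or more 578 did. The other 119 of 128 alternative counts and CVs stayed within 1.5 times the value reported, and leaving out each library in turn gave 1476 to 1498 high genes and 56 to 76 genes with a CV over 50%. Without replicate 2, the median of the fat body list was lower by 99.7%.

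Of list medians at 10 or more, 254 of 273 alternatives moved by less than the SD between libraries. Many of these could hardly have moved by more, so the count says little on robustness. Leaving a library out was judged against an SD that included that library. Without replicate 2, 0 of 39 moved by more, although the fat body median shifted by 99.7%. Keeping only rows matched to the annotation changed no median, as symbols came from it. With each library scaled to its own total, 6 of 39 moved by more than the SD. Without genes that overlap another on the same strand, 9 of 39 did. Per kb of exon, an alternative chosen after seeing the data, the median of mitochondrially encoded genes lay at percentile 90.6 of all genes in place of 58.9, and that of pan-glial and fate genes at 59.03 in place of 72.5. Depth limits statements on genes under 3 reads, and aligner and strand setting are unknown, so genes listed at 0 are not shown to be silent. No paired analysis was possible because a single group was described and no test was made.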

Other observations

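Few noncoding RNA genes were high in a readout that primes on poly(A). Of 2445 noncoding RNA genes 12 were at 100 or more, and those named here were chosen after their values were seen. lncRNA:roX1 (chromosome X, 3857230 to 3862697, dm6), an RNA of the dosage compensation complex of males, had 1472, 1523 and 1469 normalised CPM, and its partner lncRNA:roX2 had 156, 182 and 124. lncRNA:cherub (chromosome 3R, 11247631 to 11256123), known from brain tumours of fly neuroblasts, had 484, 571 and 515, above dpn at 9.64 ± 1.73 in each library. lncRNA:Hsromega, a stress-responsive nuclear RNA, had 1849, 2782 and 2364, and like the inducible heat shock genes it was lowest in replicate 1 and highest in replicate 2. What set that order was not tested.

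Of the 170 genes with no match in the annotation, 26 were at 100 or more and 7 at 1000 or more. FBgn0262735 had 3181, 3444 and 3725 and stood at rank 22 of the table. Listed genes with no row under their symbol, such as para and Imp, may be among the unmatched IDs, which was not checked.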
